A study of Mus musculus with 24 samples.

Results

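The Hpgds locus was described here as 21 regions of open chromatin, out of 184158 consensus peaks in the series. They were all the consensus peaks whose midpoint lay closest to the transcription start site (TSS) of Hpgds among the protein-coding genes of the mouse annotation. Of these 21 peaks, 20 passed the filter on low counts and entered the tests, in which 174193 peaks were tested. The gene was picked on genotype differences seen earlier in these same data, so the values of AhR-KO against WT are given below as a description. Counts of peaks past the thresholds are given for them with no p for a single peak, and nothing is drawn from those counts. The median gene with at least 1 assigned peak had 5 peaks, and 2255 of 18497 such genes had at least as many as Hpgds.

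Chromatin accessibility was measured by ATAC-seq, in which a transposase cuts open DNA, in 24 libraries of bone marrow-derived macrophages (BMDMs). Marrow came from wildtype (WT) mice or from mice without the aryl hydrocarbon receptor AhR (AhR-KO), a ligand-activated transcription factor. All cultures were differentiated with 10 ng/ml GM-CSF and 2 ng/ml TGF-β in 10% serum, conditions meant to resemble alveolar macrophages and shared by all groups. On day 6 the cells were left unstimulated or received 97 EU/ml of lipopolysaccharide (LPS), a bacterial ligand of the receptor TLR4, for 24 h, and the protocol then lists 5 µM of the calcium ionophore A23187 for 10 min. Each of the 4 combinations of genotype and treatment (WT or AhR-KO, unstimulated or LPS) had 6 libraries. The knockout was constitutive, so AhR was missing throughout differentiation as well as during stimulation. The study used adult mice of both sexes, matched between groups, and describes the samples of a group as separate animals in a single experiment, so p-values measure the spread between animals but not between experiments. Whether the unstimulated and the LPS libraries of a genotype came from the same animals is not given in the sources used here.

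Hpgds encodes the hematopoietic prostaglandin D synthase, a glutathione-dependent enzyme that turns prostaglandin H2, the product of the cyclooxygenases, into prostaglandin D2 (PGD2). PGD2 acts on the receptors encoded by Ptgdr and Ptgdr2 and is known as a mediator of allergic inflammation. Mast cells are a well known source, and macrophages, dendritic cells and some T cells also make it. An open region at the TSS marks a promoter, and open regions in introns or between genes are often enhancers, although accessibility alone does not tell which gene a region serves.

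In mm10 coordinates Hpgds (ENSMUSG00000029919.5) lies on the minus strand of chromosome 6, from 65117293 to 65144908, with its TSS at the higher coordinate. Peaks are named here by the distance of their midpoint from that TSS, upstream meaning away from the gene. The TSS peak (chr6:65144341-65145407) covered exon 1. The sequences below are shown because they are the promoter side of the TSS and 4 upstream peaks that carry the largest values described later. They were read from the RefSeq copy of GRCm38, the same build as mm10, on the minus strand. Capitals mark matches, on either strand, to 7 short motifs of factors active in macrophages or mast cells, namely GCGTG for AhR, GAGGAAG for PU.1, TGANTCA for AP-1, GGAANNTCC for NF-kB, TTNNGCAA for C/EBP, GAAANNGAA for interferon regulatory factors (IRF) and TCANGTG for MITF. A match is a description of the letters and not a bound site.
Promoter side of the TSS, chr6:65144909-65145158: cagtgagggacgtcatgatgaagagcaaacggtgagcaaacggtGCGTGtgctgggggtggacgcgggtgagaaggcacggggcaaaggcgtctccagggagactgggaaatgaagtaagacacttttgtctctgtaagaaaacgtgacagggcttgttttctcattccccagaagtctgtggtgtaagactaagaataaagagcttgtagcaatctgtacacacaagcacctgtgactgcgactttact
10.2 kb upstream peak, chr6:65154979-65155278: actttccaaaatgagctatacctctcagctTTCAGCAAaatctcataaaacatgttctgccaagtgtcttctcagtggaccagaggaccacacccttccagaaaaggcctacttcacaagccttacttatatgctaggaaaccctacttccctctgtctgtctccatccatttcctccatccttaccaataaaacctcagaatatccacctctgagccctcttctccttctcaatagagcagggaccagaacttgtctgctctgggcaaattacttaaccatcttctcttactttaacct
14 kb upstream peak, chr6:65158709-65159008: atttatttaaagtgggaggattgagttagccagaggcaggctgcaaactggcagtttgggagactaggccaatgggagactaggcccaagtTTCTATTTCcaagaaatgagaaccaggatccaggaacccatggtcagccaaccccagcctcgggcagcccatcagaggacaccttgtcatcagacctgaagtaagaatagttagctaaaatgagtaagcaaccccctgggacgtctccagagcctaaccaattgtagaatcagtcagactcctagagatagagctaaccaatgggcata
17.2 kb upstream peak, chr6:65161927-65162226: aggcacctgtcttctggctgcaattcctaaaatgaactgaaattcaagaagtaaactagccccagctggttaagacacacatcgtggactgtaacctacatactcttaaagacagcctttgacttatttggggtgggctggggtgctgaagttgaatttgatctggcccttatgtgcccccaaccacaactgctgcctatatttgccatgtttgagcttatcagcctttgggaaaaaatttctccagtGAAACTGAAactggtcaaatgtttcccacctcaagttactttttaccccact
45.8 kb upstream peak, chr6:65190572-65190871: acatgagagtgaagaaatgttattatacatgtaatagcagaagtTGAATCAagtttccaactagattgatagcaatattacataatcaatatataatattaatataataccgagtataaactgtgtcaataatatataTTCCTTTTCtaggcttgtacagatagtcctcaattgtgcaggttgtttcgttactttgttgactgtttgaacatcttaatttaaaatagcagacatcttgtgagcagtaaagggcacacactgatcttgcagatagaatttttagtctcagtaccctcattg

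The promoter stretch held 1 AhR core, which began 206 bases upstream of the GENCODE TSS (RefSeq places a TSS at 65144730, inside exon 1), and no match to the other 6 motifs. None of the 4 upstream stretches held an AhR core. The 10.2 kb upstream stretch held 1 C/EBP match. The 14 kb and the 17.2 kb upstream stretches each held 1 IRF match, and the 45.8 kb upstream stretch held 1 AP-1 and 1 IRF match. Over the central 300 bases of all 21 peaks, 2 held the AhR core (the 6.9 kb downstream and 1.6 kb upstream peaks), beside 16.3% of the central windows of all tested peaks. The IRF letters were in 6 of 21 windows, beside 10.9% of all windows, and the AP-1 letters in 5, beside 18.1%. The PU.1 letters were in 6, beside 19.5%, the C/EBP letters in 3, beside 15.8%, the NF-kB letters in 2, beside 4.47%, and the MITF letters in 2, beside 15.6%.

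Total counts in peaks ran from 8.54 to 34.6 M per library, M standing for 1000000, and WT unstimulated replicate 5 was the shallowest. The TSS peak of Ahr itself lay between 18.99 and 24.6 CPM (counts per 1000000 counts in peaks) in the WT libraries and between 11.6 and 16.8 CPM in the AhR-KO libraries, which did not overlap, though accessibility does not show whether the transcript was lost. Peaks inside the Ahr gene differed in both directions. With LPS, the peak at chr12:35520140-35521857 averaged 1.16 CPM in WT and 15.5 in AhR-KO libraries. The peak at chr12:35518177-35519384 averaged 1.55 and 1.02 CPM. All 9 macrophage markers tested (such as Adgre1, Csf1r and Itgam) had a TSS peak. Of 8 mast cell markers, Kit, Hdc and Gata2 had one and Cpa3, Fcer1a, Ms4a2, Mcpt4 and Tpsb2 had none. Of the other lists, 4 of 6 dendritic cell, 3 of 6 neutrophil, 0 of 3 eosinophil and 1 of 5 lymphocyte markers had a TSS peak, the last being Gata3.

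Per kb of peak, the 2 most accessible regions were the peak 29.8 kb downstream and the TSS peak. The 29.8 kb downstream peak (chr6:65114732-65115411) is past the end of Hpgds, within the last part of the neighbouring gene Smarcad1, a chromatin remodeller, and averaged 45.1 CPM per kb in WT unstimulated BMDMs. The TSS peak averaged 29.2 CPM per kb in the same group. The 10.2 kb and 14 kb upstream peaks averaged 14.9 CPM per kb each, and the remaining peaks lay below 10. Of the other 19 peaks, 7 lay inside the gene, touching exon 2 or exon 5 in 2 cases and otherwise only introns, and 12 lay upstream between genes. Summed over all 21 peaks, WT libraries held 138.6 ± 6.63 CPM (SD, n = 6) unstimulated and 91.4 ± 4.81 after LPS, and AhR-KO libraries held 101.7 ± 4.11 unstimulated and 73.8 ± 5.19 after LPS.

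**Figure D1:**
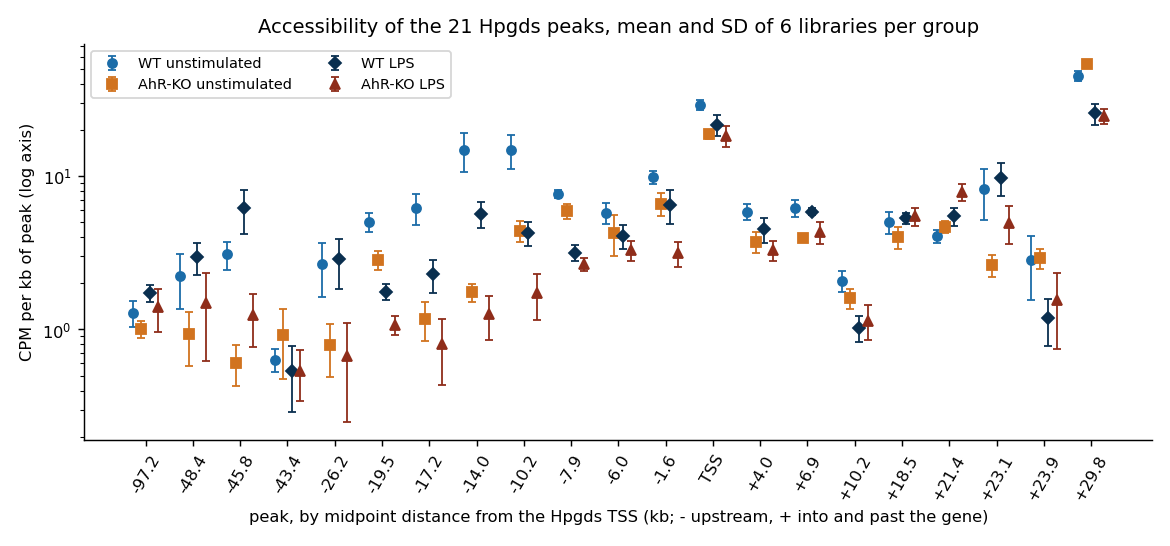
Mean CPM per kb of peak on a log axis, with the SD of 6 libraries, for each of the 21 Hpgds peaks, ordered by distance from the TSS in kb and drawn per group. The TSS peak and the 29.8 kb downstream peak stand highest in all 4 groups, and on this log scale the groups lie furthest apart at the peaks 10.2, 14, 17.2 and 45.8 kb upstream.

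The first comparison asked what LPS did at the locus in WT BMDMs. It and the LPS comparison in AhR-KO share libraries with the genotype differences on which the gene was picked. Their p-values are therefore not fully independent of that choice. Peaks were called differentially accessible regions (DARs) where the adjusted p did not exceed 0.05 and accessibility changed 1.5-fold or more. In WT, 9 of the 20 tested peaks were lower DARs after LPS, beside 21.6% of all tested peaks, and 1 was a higher DAR, beside 25.4% of all. Their median log2 fold change was -0.46, beside -0.01 over all tested peaks. In AhR-KO BMDMs, 6 were lower DARs, beside 21.5% of all, and 3 were higher DARs, beside 27.3% of all, with a median of -0.31 beside 0.05. The adjusted p-values below are from the quasi-likelihood test of edgeR with Benjamini-Hochberg adjustment across the 174193 peaks, and folds carry the standard error (SE) on the log2 scale.

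The upstream cluster between 7.9 and 19.5 kb held the largest losses. At the 7.9 kb upstream peak (chr6:65151743-65153880) WT unstimulated libraries ran from 15.4 to 18.3 CPM, with a median of 16.2, and WT LPS libraries from 6.00 to 8.01, with a median of 6.50. AhR-KO libraries there ran from 10.8 to 14.9 (median 12.4) without LPS and from 5.11 to 6.36 (median 5.55) with it. Neither pair overlapped, and accessibility fell 2.40-fold in WT (log2 fold change -1.27, SE 0.0871, edgeR adjusted p = 3.86e-15) and 2.22-fold in AhR-KO (-1.15, SE 0.0896, edgeR adjusted p = 6.02e-14).

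The 19.5 kb upstream peak (chr6:65163357-65165406) also fell in both genotypes. Its WT libraries ran from 7.91 to 11.8 CPM (median 10.3) without LPS and from 3.02 to 4.32 (median 3.52) with LPS. In AhR-KO they ran from 5.00 to 7.16 (median 5.66) and from 1.81 to 2.55 (median 2.19). All LPS libraries lay under all unstimulated libraries of their genotype, a fall of 2.88-fold in WT (log2 fold change -1.53, SE 0.109, edgeR adjusted p = 1.09e-14) and 2.62-fold in AhR-KO (-1.39, SE 0.120, edgeR adjusted p = 1.1e-12). The difference between these log2 changes was 0.14, with an approximate 95% interval from -0.18 to 0.46.

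At the 10.2 kb upstream peak (chr6:65154870-65155389) WT libraries ran from 4.30 to 9.51 CPM (median 8.27) without LPS and from 1.61 to 2.61 (median 2.21) with it. The lowest unstimulated value was that of the shallow replicate 5. AhR-KO libraries ran from 1.78 to 2.67 (median 2.37) and from 0.529 to 1.30 (median 0.868). The groups did not overlap within either genotype, and the falls were 3.54-fold in WT (log2 fold change -1.82, SE 0.155, edgeR adjusted p = 1.23e-12) and 2.56-fold in AhR-KO (-1.36, SE 0.197, edgeR adjusted p = 1.67e-07). Unstimulated AhR-KO libraries covered nearly the same range as WT libraries after LPS.

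The neighbouring peaks 14 kb (chr6:65158645-65159073) and 17.2 kb upstream (chr6:65161844-65162310) fell in WT. In AhR-KO, where they were low without LPS, they did not pass the test. At 14 kb, WT libraries ran from 3.14 to 8.59 CPM (median 6.72) without LPS and from 1.90 to 3.13 (median 2.48) with LPS. AhR-KO libraries ran from 0.636 to 0.922 (median 0.743) and from 0.326 to 0.713 (median 0.591). The WT groups came close without overlapping and the AhR-KO groups overlapped. The change was -1.42 in WT (SE 0.156, edgeR adjusted p = 5.83e-10) and -0.49 in AhR-KO (SE 0.253, edgeR adjusted p = 0.0819), on the log2 scale, the latter with an approximate 95% interval from -0.99 to 0.00. At 17.2 kb, WT libraries ran from 2.12 to 4.03 CPM (median 2.70) and, after LPS, from 0.847 to 1.498 (median 0.967), a log2 change of -1.42 (SE 0.193, edgeR adjusted p = 5.27e-08). AhR-KO libraries there ran from 0.275 to 0.702 (median 0.602) without LPS and from 0.215 to 0.633 (median 0.325) with it, a log2 change of -0.54 (SE 0.290, edgeR adjusted p = 0.0933). Both missed calls depended on the setting. The AhR-KO fall at 14 kb was a DAR when libraries were thinned to the lowest total (-0.99, edgeR adjusted p = 0.0311), and that at 17.2 kb was one without AhR-KO LPS replicate 4 (-0.76, edgeR adjusted p = 0.0249) or AhR-KO unstimulated replicate 1 (-0.69, edgeR adjusted p = 0.0323). In AhR-KO these 2 peaks rested on few reads, with a lowest count of 8 at 14 kb and of 6 at 17.2 kb over all libraries.

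**Figure D2:**
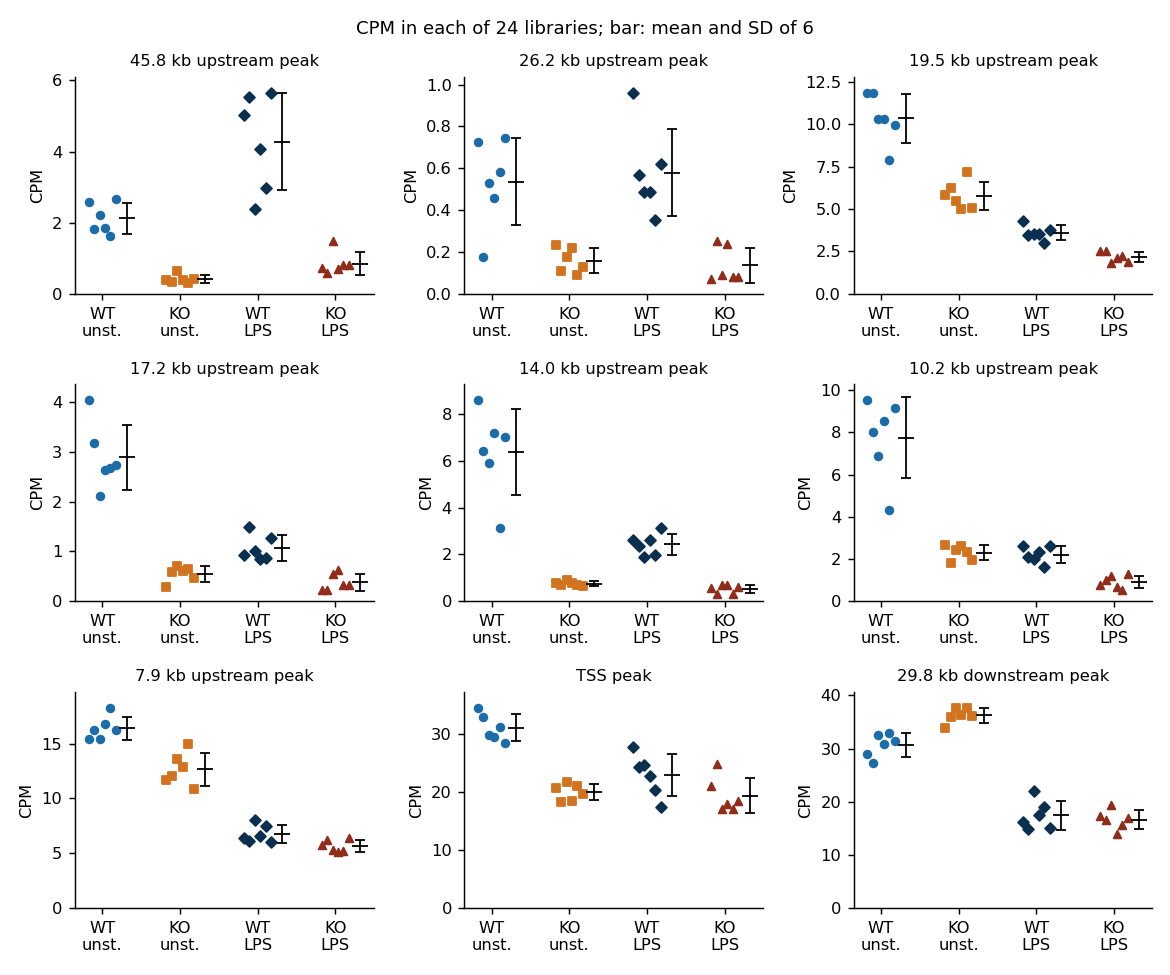
CPM in each of the 24 libraries, from 0, at 9 Hpgds peaks, with the mean and SD of the 6 libraries of a group beside the points. The largest fold between WT and AhR-KO unstimulated libraries is at the 14 kb upstream peak, where WT lay from 3.14 to 8.59 and AhR-KO from 0.636 to 0.922.

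The TSS peak changed less than the upstream cluster. WT libraries ran from 28.5 to 34.6 CPM (median 30.6) without LPS and from 17.5 to 27.9 (median 23.6) with LPS. AhR-KO libraries ran from 18.3 to 21.7 (median 20.3) and from 17.1 to 24.8 (median 18.2). The WT groups did not overlap, with WT unstimulated libraries above all others, whereas the AhR-KO groups overlapped with each other and with WT LPS. In WT the log2 change was -0.44 (SE 0.0891, edgeR adjusted p = 6.89e-05), a fall of 1.35-fold that passed the p threshold but not the fold threshold of a DAR. In AhR-KO it was -0.04 (SE 0.0912, edgeR adjusted p = 0.707), with an approximate 95% interval from -0.22 to 0.14. The 1.6 kb upstream peak, next to the promoter, fell in both genotypes, 1.52-fold in WT (edgeR adjusted p = 0.000538) and 2.10-fold in AhR-KO (edgeR adjusted p = 5.82e-07). Its WT call was lost without WT unstimulated replicate 1, 4 or 6 or WT LPS replicate 3, and when libraries were thinned.

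Some regions opened. At the 45.8 kb upstream peak (chr6:65190378-65191067) WT libraries ran from 1.63 to 2.67 CPM (median 2.02) without LPS and from 2.38 to 5.64 (median 4.55) with it. AhR-KO libraries ran from 0.319 to 0.658 (median 0.392) and from 0.582 to 1.49 (median 0.764). The groups overlapped within each genotype, and accessibility rose 1.99-fold in WT (log2 fold change 0.99, SE 0.191, edgeR adjusted p = 2.93e-05) and 1.99-fold in AhR-KO (0.99, SE 0.296, edgeR adjusted p = 0.0035). This was the single higher DAR in WT. In AhR-KO the other higher DARs were 2 peaks near the end of the gene, at 21.4 kb downstream, over exon 5 (1.69-fold, edgeR adjusted p = 3.04e-08), and at 23.1 kb downstream, in an intron (1.87-fold, edgeR adjusted p = 0.000917), the latter lost when libraries were thinned to the lowest total. In WT the 21.4 kb peak had a log2 change of 0.43 (edgeR adjusted p = 0.000537), below the fold threshold, and the 23.1 kb peak 0.21 (edgeR adjusted p = 0.323). The 97.2 kb upstream peak rose below the fold threshold in both genotypes, by 0.45 on the log2 scale in each (edgeR adjusted p = 0.011 and 0.0117).

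At the far side of the gene, the 29.8 kb downstream peak fell. WT libraries ran from 27.2 to 32.9 CPM (median 31.1) without LPS and from 14.9 to 22.1 (median 16.8) with it, and AhR-KO libraries from 33.9 to 37.7 (median 36.3) and from 13.97 to 19.5 (median 16.7). No LPS library reached an unstimulated library of its genotype, and the falls were 1.75-fold in WT (edgeR adjusted p = 2.57e-11) and 2.18-fold in AhR-KO (edgeR adjusted p = 2.66e-15). The 23.9 kb downstream peak, a weak intronic region, fell 2.50-fold in WT (edgeR adjusted p = 0.000132) and 1.90-fold in AhR-KO (edgeR adjusted p = 0.00401), and both calls were lost when libraries were thinned to the lowest total. The 10.2 kb downstream peak, also intronic, fell 2.04-fold in WT (edgeR adjusted p = 4.76e-06) and 1.40-fold in AhR-KO (edgeR adjusted p = 0.0188), the latter below the fold threshold except when libraries were thinned. The 6.9 kb downstream peak over exon 2 did not pass in either genotype, with log2 changes of -0.10 and 0.12. The remaining peaks were no DAR in either genotype, namely those 18.5 and 4.0 kb downstream and 6.0, 26.2 and 48.4 kb upstream, with log2 changes from -0.48 to 0.63, except that the 48.4 kb upstream peak was a higher DAR in AhR-KO without AhR-KO LPS replicate 1 (0.81, edgeR adjusted p = 0.0329).

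**Figure D3:**
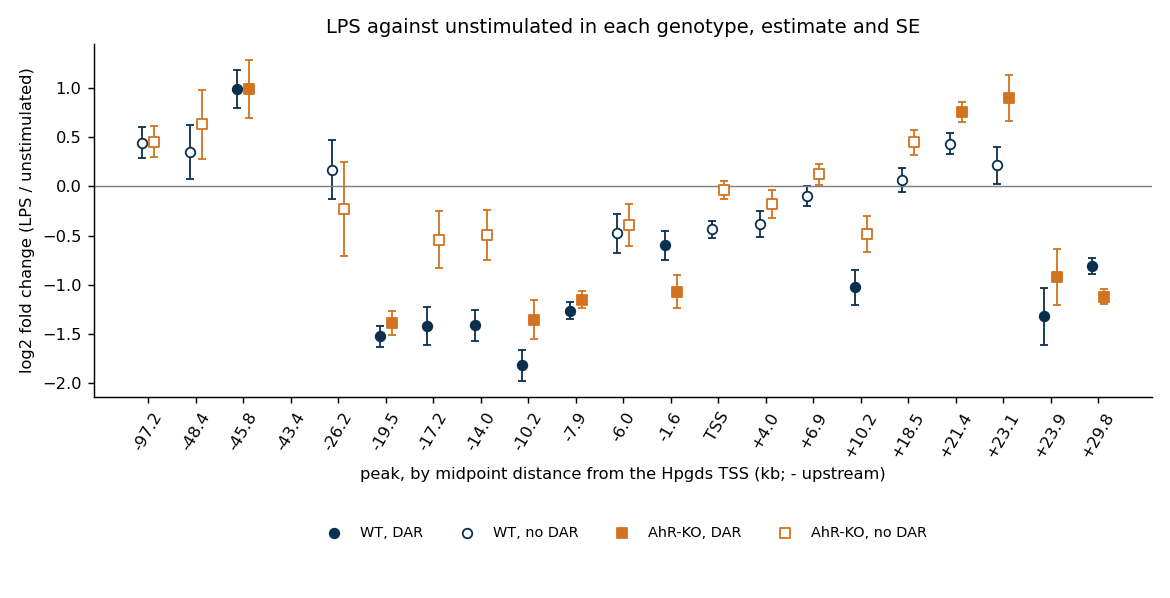
Log2 fold change of LPS against unstimulated libraries, with its SE, at the 20 tested peaks in WT (circles) and AhR-KO (squares), filled where the peak was a DAR. Peaks from 7.9 to 19.5 kb upstream lie below 0 in both genotypes, the 45.8 kb upstream peak lies at 0.99 in both, and the TSS peak lies at -0.44 in WT and -0.04 in AhR-KO. The 43.4 kb upstream peak was not tested and has no point.

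Together, 6 peaks were lower DARs with LPS in both genotypes, those 1.6, 7.9, 10.2 and 19.5 kb upstream and 23.9 and 29.8 kb downstream, and 1 was a higher DAR in both. The interaction, which compares the AhR-KO to WT difference with LPS to that without, tested whether the responses differed. It is built from the same genotype differences for which the gene was picked, so its p-values are not independent of that choice. Of the 20 peaks, 1 was a DAR with a positive interaction, beside 5.83% of all tested peaks, and 0 had a negative one by edgeR, beside 4.58% of all. At an unadjusted p under 0.05 by edgeR, 2 peaks were negative and 7 positive. The share of all tested peaks at that level was not computed, so nothing is drawn from these counts. DESeq2 called 0 negative and 1 positive. The called peak was the one 14 kb upstream, where the interaction was 0.92 on the log2 scale (SE 0.299, edgeR adjusted p = 0.032). Its call was lost when any 1 of 6 libraries was left out, namely AhR-KO LPS replicate 3, 4 or 6, AhR-KO unstimulated replicate 5 or 6, or WT unstimulated replicate 1, with adjusted p-values up to 0.0759, and when all libraries were thinned to the lowest total the interaction was 0.45 (edgeR adjusted p = 0.64). The TSS peak had an interaction of 0.40 (SE 0.127, edgeR adjusted p = 0.0314) and the 29.8 kb downstream peak one of -0.31 (SE 0.110, edgeR adjusted p = 0.0472), both below the fold threshold. Leaving out 1 library raised the adjusted p to as much as 0.0683 at the TSS peak and 0.0981 at the 29.8 kb downstream peak. At 17.2 kb upstream the interaction was 0.88 (SE 0.351, edgeR adjusted p = 0.0849), and it was a DAR without AhR-KO LPS replicate 1 (edgeR adjusted p = 0.0498). Without WT unstimulated replicate 5 the 23.1 kb downstream peak had an interaction of 0.79 (edgeR adjusted p = 0.0432), and without WT LPS replicate 3 the 1.6 kb upstream peak had one of -0.59 (edgeR adjusted p = 0.0345). At 45.8 kb upstream it was -0.00, with an approximate 95% interval from -0.70 to 0.70.

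The genotype difference is the contrast on which the gene was picked and is given as a description. Without LPS, 11 of the 20 peaks were lower DARs in AhR-KO, beside 12.6% of all tested peaks, and 0 were higher by edgeR, beside 9.95% of all. With LPS, 9 were lower, beside 13.1% of all, and 0 were higher by edgeR, beside 13.4% of all. In each of these comparisons 1 peak was higher at an unadjusted p under 0.05 by edgeR, a level at which the share of all tested peaks was not computed. DESeq2 also called 0 higher. Both lists shared 8 peaks, those 10.2, 14, 17.2, 19.5, 26.2, 45.8 and 48.4 kb upstream and 23.1 kb downstream. The TSS, 4.0 kb downstream and 6.9 kb downstream peaks were called without LPS alone, and the 1.6 kb upstream peak with LPS alone. The last was also called without LPS when AhR-KO unstimulated replicate 5 or 6 or WT unstimulated replicate 3 was left out (-0.62, -0.61 and -0.60 on the log2 scale), and the 6.9 kb downstream peak with LPS when libraries were thinned (-0.61). The 21.4 kb downstream peak was a higher DAR with LPS without WT LPS replicate 3 (0.60) or when thinned (0.70).

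Without LPS the largest differences were at the peaks 14 kb upstream (log2 fold change -3.10, SE 0.189), 17.2 kb upstream (-2.40, SE 0.224) and 45.8 kb upstream (-2.34, SE 0.267). With LPS they were at the peaks 45.8 kb upstream (-2.34, SE 0.208), 14 kb upstream (-2.18, SE 0.206) and 26.2 kb upstream (-2.04, SE 0.357). At all 4 of these peaks AhR-KO was lower in both treatments. The 26.2 kb upstream peak (chr6:65171009-65171210) was the weakest of them. Its WT libraries ran from 0.174 to 0.743 CPM (median 0.556) without LPS and from 0.353 to 0.959 (median 0.527) with LPS, and its AhR-KO libraries from 0.0912 to 0.236 (median 0.151) and from 0.0717 to 0.255 (median 0.0859). The genotypes overlapped there without LPS and did not overlap with it. The TSS peak differed by -0.63 without LPS (SE 0.0911), which was 18.3 to 21.7 CPM against 28.5 to 34.6, and by -0.24 with LPS (SE 0.0893), where the genotypes overlapped, and its call without LPS was lost with RLE size factors. The 29.8 kb downstream and 21.4 kb downstream peaks were the 2 with a positive difference without LPS, at 0.25 (SE 0.0764) and 0.20 (SE 0.110).

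**Figure D4:**
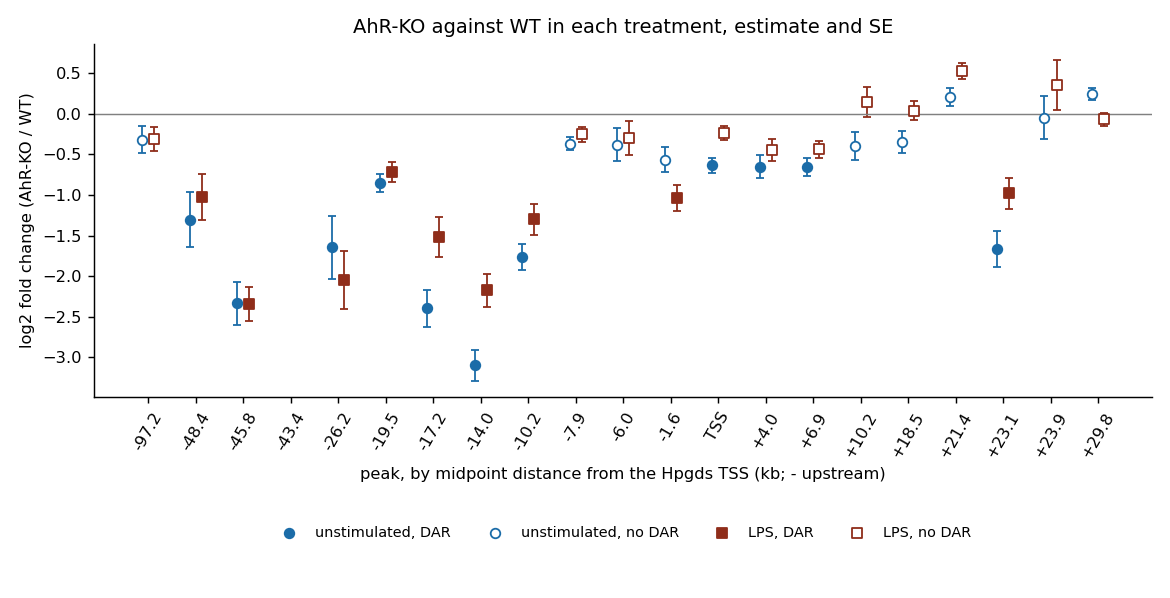
Log2 fold change of AhR-KO against WT, with its SE, at the 20 tested peaks without LPS (circles) and with LPS (squares), filled where the peak was a DAR. Without LPS 18 of 20 peaks lie below 0 and with LPS 16 of 20, with the lowest point at -3.10 for the 14 kb upstream peak. The median over all tested peaks was -0.02 without LPS and 0.02 with LPS, and the share of them below 0 was not computed. The gene was picked on this contrast, so nothing is drawn from these counts.

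The authors also called broad peaks in each library on its own, which shows how often a region stood out in a single library. Such calls also depend on depth, which ran from 8.54 to 34.6 M counts in peaks and differed between groups. The part of depth in the numbers below was not tested. A library's own peak overlapped the TSS peak in 24 of 24 libraries, and likewise the peaks 29.8, 21.4 and 6.9 kb downstream and 7.9 kb upstream. The 14 kb upstream region was called in 6 of 6 WT unstimulated and 6 of 6 WT LPS libraries and in 0 of 6 AhR-KO libraries of either treatment. The 45.8 kb upstream region was called in 5 WT unstimulated, 6 WT LPS and 0 AhR-KO libraries, and the 17.2 kb upstream region in 5, 4 and 0. The 10.2 kb upstream region was called in 6 WT libraries without LPS and 5 with it, and in 4 and 0 AhR-KO libraries. The 23.1 kb downstream region was called in 4 WT libraries without LPS and 6 with it, and in 0 and 3 AhR-KO libraries. Peaks at 23.9 and 4.0 kb downstream and 6.0, 26.2 and 43.4 kb upstream were called in 1 of 24 libraries each. These numbers count an overlap of 1 base or more. With an overlap of at least 50% of the peak, the 45.8 kb upstream region was called in 1 library, of the WT LPS group, the 7.9 kb upstream region in 2 of 24 and the 21.4 kb downstream region in 4 of 24, while the TSS and 29.8 kb downstream regions stayed at 24 of 24. The 14 kb upstream region was then called in 5 WT unstimulated, 5 WT LPS and 0 AhR-KO libraries, and the 17.2 kb upstream region in 3, 2 and 0. With 1 base of overlap but a −log10 q of at least 5 in the library's own call, the 17.2 kb upstream region was called in 0 libraries of every group. The 10.2 kb upstream region was then called in 5 WT unstimulated libraries and 0 of the other groups. The 14 kb upstream region kept 5 WT unstimulated and 6 WT LPS calls, and the 45.8 kb upstream region 4 and 6. These calls come from the same reads as the counts, so they are not independent of the choice of the gene. The 43.4 kb upstream peak, which was not tested, had a highest count of 20 and group means from 0.254 to 0.432 CPM.

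**Figure D5:**
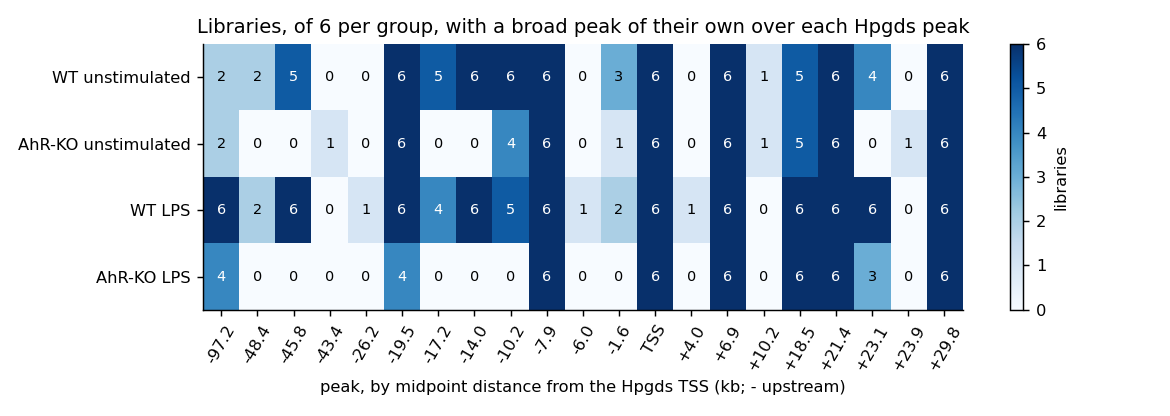
Number of libraries, of 6 per group, whose own broad peak list overlapped each of the 21 Hpgds peaks by at least 1 base, ordered by distance from the TSS in kb. The 14 kb upstream column reads 6 in both WT groups and 0 in both AhR-KO groups, and the TSS column reads 6 in all 4.

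Some markers of other cells moved with genotype as well. The TSS peak of Kit, the receptor for stem cell factor on mast cells and progenitors, averaged 11.1 ± 1.33 CPM in unstimulated WT and 4.79 ± 0.498 in unstimulated AhR-KO libraries (SD, n = 6), and 13.96 ± 1.83 and 5.92 ± 0.639 with LPS. The summed TSS accessibility of the 3 mast cell markers with a peak ran, without LPS, from 18.03 to 23.9 CPM (WT) and 12.8 to 14.7 CPM (AhR-KO), and with LPS from 25.4 to 31.5 and from 18 to 22.2 CPM. Kit was the lower DAR among these 3 in both comparisons, beside 12.6% of all tested peaks without LPS and 13.1% with LPS. Hdc and Gata2 were no DARs, with log2 changes of -0.05 and -0.15 without LPS and 0.19 and -0.31 with LPS. Of the 4 dendritic cell markers with a TSS peak, Flt3 was the lower DAR without LPS, beside 12.6% of all tested peaks. It lay at 9.07 ± 2.12 CPM in WT libraries and 4.08 ± 0.607 CPM in AhR-KO libraries (SD, n = 6). Flt3 and Ccr7 were the lower DARs with LPS, beside 13.1% of all. H2-Eb1 was no DAR, with log2 changes of 0.09 without LPS and -0.20 with LPS, and neither was Zbtb46 (0.21 and -0.19). Zbtb46 averaged 21.6 ± 1.70 CPM in WT and 25.1 ± 2.06 in AhR-KO libraries without LPS. The sum of the 4 overlapped between genotypes without LPS, from 36.4 to 47.4 CPM (WT) and from 36.6 to 45.2 CPM (AhR-KO), and did not quite overlap with LPS, from 37.23 to 58.6 and from 29.97 to 37.20 CPM. Among the 3 neutrophil markers with a TSS peak, S100a9 was a lower DAR in AhR-KO, at -1.35 on the log2 scale without LPS and -1.10 with LPS. The shares of all tested peaks beside it were again 12.6% and 13.1%. S100a8 (0.25 and 0.09) and Csf3r (-0.36 and -0.27) were no DARs. The part of these markers in the Hpgds values was not tested, and in bulk samples fewer cells of a type and less open chromatin per cell cannot be told apart. The summed macrophage markers ran, without LPS, from 143.1 to 158.5 CPM (WT) and 169 to 211 CPM (AhR-KO), and with LPS from 122.3 to 140.0 and from 120.2 to 161.5 CPM. Of the 9, 1 was a higher DAR in AhR-KO without LPS (Marco, 0.94 on the log2 scale), beside 9.95% of all tested peaks. The others were no DARs, with log2 changes from 0.019 (Fcgr1) to 0.575 (Cd68, at 36.1 ± 9.01 CPM in AhR-KO). With LPS 0 of the 9 were DARs in either direction.

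The 7 other protein-coding genes with a TSS within 1 Mb of that of Hpgds had 106 tested peaks. Of these, 16 were lower DARs with LPS in WT, beside 21.6% of all tested peaks, and 42 higher, beside 25.4%. In AhR-KO 16 were lower, beside 21.5%, and 44 higher, beside 27.3%. Most of the higher ones were near Atoh1, a transcription factor gene of neurons (17 of 21 in WT and 17 in AhR-KO), and Tnip3, an inhibitor of NF-kB signalling (14 of 33 in each). Smarcad1, the nearest gene, had 8 tested peaks, of which 1 was a lower DAR with LPS in AhR-KO. In AhR-KO against WT, 13 of the 106 were lower without LPS, beside 12.6% of all tested peaks, and 4 higher, beside 9.95%. With LPS 23 were lower, beside 13.1%, and 10 higher, beside 13.4%. The calls were not spread evenly over these genes. Near C130060K24Rik, whose TSS lay 236.4 kb away, 3 of 5 tested peaks were lower in AhR-KO without LPS and 4 with LPS. Its lower DARs with LPS were 4 in WT and 3 in AhR-KO, and it had 0 higher DARs in these comparisons. Lower calls in AhR-KO were therefore not confined to Hpgds in this region.

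Among the other 15 genes listed for the PGD2 pathway, 9 had a tested TSS peak. Ptgds, which encodes the other PGD2 synthase, the receptor genes Ptgdr and Ptgdr2, the transporter gene Slco2a1 and the synthase genes Ptges and Ptgis had none. With LPS in WT, 2 of the 9 were lower DARs, beside 21.6% of all tested peaks, and 2 higher, beside 25.4%, and in AhR-KO 1 was lower, beside 21.5%, and 2 higher, beside 27.3%. These shares are near those of all tested peaks. Upstream of Hpgds in the pathway, the TSS peak of the inducible cyclooxygenase gene Ptgs2 averaged 15.8 ± 1.17 CPM in WT (SD, n = 6) and rose to 30.6 ± 2.17 after LPS, and in AhR-KO it rose from 10.3 ± 0.684 to 31.8 ± 2.47 CPM. That of Ptgs1, the constitutive cyclooxygenase, fell from 39.04 ± 3.36 to 18.9 ± 2.47 CPM in WT, and in AhR-KO from 22.6 ± 1.80 to 14.9 ± 1.15 CPM. Among enzymes that break down or convert prostaglandins, Hpgd fell in WT from 5.16 ± 0.478 to 2.88 ± 0.408 CPM and was 5.37 ± 1.03 and 4.73 ± 0.450 in AhR-KO, where it did not pass. Akr1c18 rose in both genotypes, with log2 changes of 1.22 and 0.96. Ptgs2 and Hpgd were also DARs in the interaction, at 0.66 and 0.64 on the log2 scale, 2 of the 9 beside 5.83% of all tested peaks, and 0 were negative, beside 4.58%. In AhR-KO against WT without LPS, Ptgs1 and Ptgs2 were lower DARs, beside 12.6% of all tested peaks, and Akr1c18 a higher one, beside 9.95%. With LPS 0 of the 9 were lower, beside 13.1%, and Hpgd was a higher DAR, beside 13.4%. Nothing is drawn from these few calls.

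Over the 24 libraries, the 4 genes whose TSS peak was most like that of Hpgds by Pearson correlation of log2 CPM were Atp8a1 (r = 0.94), Tomm70a (0.92), Svip (0.92) and Cldn1 (0.92). Like Hpgds, all 4 were highest on average in WT unstimulated libraries. Svip averaged 39.1 ± 4.11 CPM in that group and 28.9 ± 3.26 in WT LPS libraries, and 24.9 ± 1.26 and 25.4 ± 3.42 in AhR-KO libraries without and with LPS. These correlations are over libraries that share 4 groups, and are given as a description.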

How the data were processed

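Reads were processed by the authors with the nf-core atacseq pipeline on mm10, with MACS2 broad peaks per library and a consensus set over all libraries. The deposited counts per consensus peak were made by the authors with featureCounts 2.0.1 (minimum overlap 0.2 of a read). Each library's deposited broad peak list gives −log10 q values and fold enrichment ratios (fold was not used further).

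From the counts, edgeR 4.0.16 (filterByExpr, TMM, quasi-likelihood F test, R 4.3.3) was fitted to all 24 libraries by group. CPM used TMM-scaled totals (before scaling, 8.54 to 34.6 M counts). DARs needed an adjusted p no higher than 0.05 and a 1.5-fold change. The fit was also run on simulated counts in which few peaks changed, in a single group. In these data far more peaks changed, so nothing is drawn from that run. Peaks were assigned by the nearest TSS (GENCODE vM21 basic). The Hpgds peaks and all lists were chosen with earlier results of these data known. Peaks described in full were the TSS peak, the 3 smallest p in each LPS or interaction test, and the 3 largest genotype changes; other peaks are summarised. Of the 5 genes to be named for likeness to Hpgds, 1 is not reported here. Approximate 95% intervals are the estimate plus or minus a normal multiple of its SE. Promoter sequence was taken upstream of the TSS alone. Alternatives were DESeq2 1.42.0, other scalings, no filter, thinning, blocks and leaving out each library.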

Additional observations from a re-analysis of the deposited data

Results flagged for a closer look

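Within groups of 6, a library stood apart from the other 5 (Dixon's ratio above its 95% critical value) at 4 of 84 groups tested, and chance alone flags about 1 in 20 groups. WT unstimulated replicate 5, the shallowest library, had 0.116 CPM at the 23.9 kb downstream peak, where the others lay between 0.927 and 1.25. AhR-KO unstimulated replicate 6 had 0.848 CPM at the untested 43.4 kb upstream peak, where the others lay between 0.315 and 0.395. At the 45.8 kb upstream peak AhR-KO unstimulated replicate 3 had 0.658 CPM, above 0.319 to 0.424 in the others, and AhR-KO LPS replicate 3 had 1.49 CPM, above 0.582 to 0.814 in the others.

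The edgeR interaction test, which compares the genotype differences of the 2 treatments, had an adjusted p under its threshold at 3 peaks of a gene picked on those differences. The log2 interaction was 0.92 at the 14 kb upstream peak (adjusted p = 0.032), 0.40 at the TSS peak (adjusted p = 0.0314) and -0.31 at the 29.8 kb downstream peak (adjusted p = 0.0472). The last 2 did not reach the fold threshold, and the call at 14 kb was lost in 7 of 31 alternatives.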

How the results depend on the processing

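Of the 40 DAR calls at Hpgds peaks over the 5 comparisons, 34 held under every alternative fit that tested the peak, of up to 32 fits. A further 6 were lost under at least 1, and 0 took the opposite sign. Of the 60 peaks and comparisons with no call, 10 gained one under at least 1. The 26.2 and 48.4 kb upstream peaks were not tested in some fits, so their AhR-KO against WT calls could not be checked there. Lower DARs in AhR-KO were then 9 without LPS when only the 2 groups were compared, and 8 with LPS when libraries were thinned. A fold of at least 2 left, unstimulated, 7 lower DARs in AhR-KO, and 0 higher DARs with LPS in WT, 0 in AhR-KO and 0 in the interaction. With no fold threshold there were 1 higher in AhR-KO without LPS and 1 with LPS, 3 higher with LPS in WT, 5 higher with LPS in AhR-KO, and 1 negative and 2 positive in the interaction. The lower ones were then 14 in AhR-KO without LPS and 13 with LPS. Peaks lower with LPS were then 12 in WT and 7 in AhR-KO. The shares of all tested peaks at a fold of at least 2 or with no fold threshold were not computed. Nothing is drawn from the counts at those 2 settings. Restricting the locus to the gene and 5 kb upstream of it left, for AhR-KO against WT, 4 lower DARs unstimulated and 2 after LPS, 3 lower and 0 higher with LPS in WT, 2 lower with LPS in AhR-KO and 0 positive in the interaction, since fewer peaks were counted. Thinning to the lowest total gave 1 higher DAR in AhR-KO with LPS and 0 in the interaction. Leaving out 1 library at a time gave 0 to 1 higher DARs in AhR-KO with LPS, 0 to 2 positive and 0 to 1 negative in the interaction. The value of 1 came without WT LPS replicate 3 in both cases, and the 2 without AhR-KO LPS replicate 1 or WT unstimulated replicate 5. The TSS call without LPS was lost with RLE size factors and with DESeq2, and its interaction then had adjusted p-values of 0.0553 and 0.0631. The interaction at 29.8 kb downstream had adjusted p-values up to 0.0981 when a library was left out. The cause of these changes was not tested.

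Nothing in the labels ties same-numbered libraries to each other, so they were not taken as paired. Their deviations correlated above 0.1 in 5 of 6 WT and 2 of 6 AhR-KO pairs of an unstimulated and an LPS library, and 4 and 3 of the 6 matched their own number best. Between WT and AhR-KO libraries, 0 of 6 such pairs exceeded 0.1 without LPS and 2 of 6 with LPS. A pairing within genotype, in WT above all, therefore remains possible, and the reported LPS and interaction p-values do not account for it. The replicate block changed no call. A replicate block within genotype gave 3 positive DARs in the interaction, adding the peaks 23.1 kb downstream (0.69, adjusted p = 0.0308) and 17.2 kb upstream (0.88, adjusted p = 0.0399). Calls per library summed over peaks fell to 140 with a required overlap of 50% of the peak. By Spearman correlation Svip and Cldn1 ranked 9 and 7.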
